A study of Mus musculus with 18 samples.

Results

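Most tripartite-motif (TRIM) genes encode ubiquitin ligases built from a RING finger, B-box zinc fingers and a coiled coil, followed by a C-terminal part that differs between classes, while some members, among them Trim14, Trim16, Trim29 and Trim44, lack the RING finger. The members were taken by name, as protein-coding mouse genes whose symbol begins with Trim and a digit. Of 68 such genes, 36 had a row of their own in the 18 libraries and 28 reached the level needed for testing, against 9707 genes tested of 13598 genes with a value in all. RNA sequencing had been done on thioglycolate-elicited peritoneal macrophages from mice with wild-type TLR4 (TLR4-WT) and from CRISPR/Cas9 knock-in mice that carry arginine in place of the lysine named in TLR4-K730R or TLR4-K810R, both in the cytoplasmic TIR domain of the receptor. Cells of each genotype were left as controls or given LPS at 100 ng/ml for 6 h, with 3 libraries in each of the 6 groups. The age and sex of the mice, and whether the 3 libraries of a group came from separate mice, were not given in the sources used here, so the p-values measure the spread between these libraries, which may be technical.

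TRIM ligases attach ubiquitin, or in some cases the ubiquitin-like ISG15 or SUMO, to chosen proteins, and the largest class carries a C-terminal PRY-SPRY domain that recognises the target. Many PRY-SPRY members are known interferon-stimulated genes with a part in antiviral defence. LPS acts on TLR4 through 2 adaptor routes, MyD88-dependent signalling to NF-kB and TRIF-dependent induction of type I interferon, and interferon then acts back on the same macrophages through interferon-stimulated response elements (ISREs) in promoters. Other members act in the nucleus with heterochromatin (Trim24, Trim28, Trim33), on the cytoskeleton and muscle proteins (Trim32) or at membranes (Trim13).

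The promoters of the members in use held a recurrent sequence, shown here because it is shared by genes that differed widely in their LPS response. RefSeq promoter windows (GRCm38.p6, 250 bases before to 50 bases after the start) were matched by symbol for 53 of the 68 members, and 18 members had a window at a start with at least 1 FPKM in the libraries and were tested. Of these, Trim5, Trim12c, Trim25, Trim30d, Trim34a and Trim47 were tested only when rows were given to genes by place, as described further on, a choice made after the data had been seen. The search was for the ISRE letters GAAANNGAAA on both strands, which were in 3.44% of all 32851 windows. They were in the windows of 8 of the 18 members, and 30 bases around the match are given below on the gene's strand with the match in capitals. The capitals for Trim21 and Trim26 cover 2 overlapping matches each.
Trim5, chr7:104288136-104288165, minus strand: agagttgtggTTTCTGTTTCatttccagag
Trim12a, chr7:104315466-104315495, minus strand: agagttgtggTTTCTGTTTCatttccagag
Trim12c, chr7:104353359-104353388, minus strand: agagttgtggTTTCTGTTTCatttccagct
Trim30a, chr7:104465210-104465239, minus strand: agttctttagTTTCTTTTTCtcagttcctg
Trim30d, chr7:104507871-104507900, minus strand: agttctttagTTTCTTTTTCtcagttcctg
Trim34a, chr7:104244457-104244486, plus strand: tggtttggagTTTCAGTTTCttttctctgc
Trim21, chr7:102565447-102565476, minus strand: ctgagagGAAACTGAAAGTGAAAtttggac
Trim26, chr17:36836979-36837008, plus strand: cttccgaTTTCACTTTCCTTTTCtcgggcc
Trim5, Trim12a, Trim12c, Trim30a, Trim30d and Trim34a are related genes that lie together on chromosome 7. Over the 100 bases upstream, Trim30a and Trim30d were identical at 94 of 95 aligned bases (98.9%), so their promoters are near copies and are not independent of one another. The windows of Trim13, Trim23, Trim25, Trim27, Trim28, Trim30c, Trim32, Trim37, Trim44 and Trim47 held no such match. The NF-kB letters GGGANNTTCC, in 1.47% of all windows, were in the Trim28 window only among the 18 members.

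The deposited values are FPKM (fragments scaled to transcript length and to the mapped fragments of the library), which are comparable between genes per length but keep no read counts, so the depth of each library is unknown. First-exon rows and last-exon rows were summed separately for each gene, the larger sum was used, and a gene without a row is listed at 0. Such zeros can be failed estimates: Cd14, a surface protein of every macrophage, had a value in 1 of 18 libraries, and Isg15 in 4 LPS libraries, once rows that did not overlap the gene on its strand were dropped. Differences below are on the log2(FPKM + 1) scale with their standard error from a limma fit over all tested genes, and a difference passed at a Benjamini-Hochberg adjusted p under 0.01. The macrophage list (7 of 8 markers with a row) summed to 11600 to 14800 FPKM in control libraries and 7290 to 10100 FPKM in LPS libraries, lower with LPS in every genotype. Most of that sum was Lyz2 (5940 to 13300 FPKM), and no other marker exceeded 771 FPKM. The sum therefore mainly follows Lyz2 and does not show that the other markers fell. The neutrophil list summed to 22.9 to 46.7 FPKM in control libraries and 172 to 245 FPKM in LPS libraries, nearly all of it S100a8, while Ly6g and Mpo stayed under 1 FPKM in every library. The mesothelial and fibroblast list, mostly Col1a1 and Dcn, summed to 58.1 to 138 FPKM in TLR4-K810R controls against 11.2 to 23.9 FPKM in TLR4-WT controls and 26.8 to 32.1 FPKM in TLR4-K730R controls. For the intestinal epithelium list, TLR4-WT controls lay between 0.118 and 0.594 FPKM, and every knock-in control was above that range. Among TLR4-K730R controls the lowest sum was 6.56 FPKM and the highest 32.3 FPKM. The corresponding limits for TLR4-K810R controls were 10.3 and 48.7 FPKM. In such bulk samples, fewer cells of a type and less RNA per cell cannot be told apart, and the part of these cells in the differences below was not tested.

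With LPS, members moved in both directions. In TLR4-WT macrophages 7 members rose and 6 fell. In TLR4-K730R 9 rose and 7 fell, and 8 rose and 3 fell in TLR4-K810R. The share of the 28 tested members that passed was 46.4% in TLR4-WT beside 34.3% of all genes tested, 57.1% in TLR4-K730R beside 35.8%, and 39.3% in TLR4-K810R beside 28.8%. Taken by direction, 10.4%, 9.32% and 9.08% of all genes passed as higher in the 3 genotypes in that order, and 23.9%, 26.5% and 19.7% passed as lower. Of the 28 members, 25.0%, 32.1% and 28.6% passed as higher and 21.4%, 25.0% and 10.7% as lower. The share that fell was near that of all genes in TLR4-WT and TLR4-K730R. It was lower than that of all genes in TLR4-K810R, where 3 members fell. Over all genes tested the median LPS difference was -0.28, -0.36 and -0.26 in TLR4-WT, TLR4-K730R and TLR4-K810R. Over the 28 members it was -0.41, -0.15 and -0.12. Trim30b, Trim30c and Trim6 reached 1 FPKM in fewer than 3 control libraries and so entered the test through the LPS groups; among the other 25 members 5 rose and 6 fell, 7 rose and 7 fell, and 6 rose and 3 fell in the 3 genotypes in that order, with medians of -0.47, -0.35 and -0.20. Median-of-ratios scaling moved the median of all genes to -0.04, -0.09 and -0.07, so the falls are read against that shift, and the split of members then became 9 higher and 3 lower, 9 higher and 3 lower, and 8 higher and 0 lower.

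**Figure D1:**
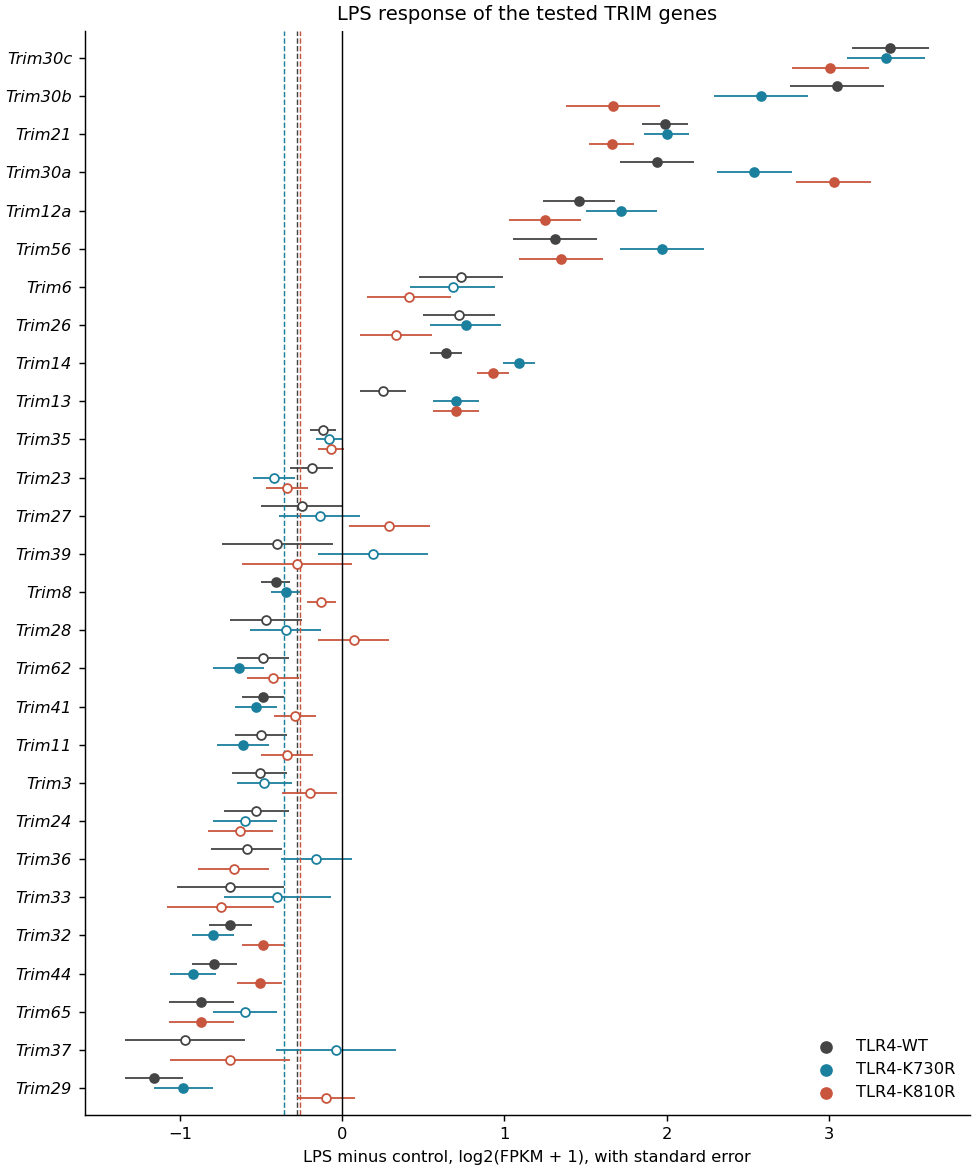
The LPS difference of the 28 tested TRIM genes on the log2(FPKM + 1) scale (x axis) with its standard error, in TLR4-WT (grey), TLR4-K730R (blue) and TLR4-K810R (red), from the limma fit on 3 libraries per group. Filled points passed an adjusted p of 0.01 and the dashed lines are the medians of all genes tested (-0.28, -0.36 and -0.26); Trim30c, Trim30b, Trim21, Trim30a, Trim12a, Trim56 and Trim14 are filled and above 0 in every genotype.

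The genes of the Trim5, Trim6, Trim12, Trim30 and Trim34 group, PRY-SPRY proteins encoded side by side on chromosome 7, included several members that rose. Trim30a (chr7:104409025-104465193) encodes a ligase known to dampen TLR-driven NF-kB signalling through TAB2 and TAB3. It measured 9.40, 8.26 and 7.79 FPKM in TLR4-WT controls and 42.8, 33.8 and 30.3 FPKM with LPS. It measured 3.93, 5.64 and 4.04 FPKM in TLR4-K730R controls and 36.5, 22.0 and 36.8 FPKM with LPS. In TLR4-K810R it measured 4.14, 3.30 and 2.49 FPKM in controls and 25.7, 31.9 and 47.0 FPKM with LPS. No control library overlapped an LPS library, and the rise was 1.94 ± 0.23 in TLR4-WT (limma adjusted p = 5.21e-06), 2.54 ± 0.23 in TLR4-K730R (adjusted p = 2.42e-07) and 3.03 ± 0.23 in TLR4-K810R (adjusted p = 3.70e-08).

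Trim30c was near the floor without LPS, at 0.728, 1.07 and 0.298 FPKM in TLR4-WT controls and between 0 and 0.724 FPKM in the controls of both knock-ins. With LPS it measured 18.8, 19.0 and 12.2 FPKM in TLR4-WT, 12.6, 12.3 and 15.9 FPKM in TLR4-K730R and 8.40, 7.40 and 8.41 FPKM in TLR4-K810R. Its rises of 3.38 ± 0.24, 3.35 ± 0.24 and 3.01 ± 0.24 (adjusted p of 1.22e-08, 1.18e-08 and 5.03e-08) were among the largest in the family, but their size and order rest on the pseudocount: at 0.1 FPKM they were 4.50, 5.10 and 5.55. Trim30b was listed at 0 in all 3 TLR4-K810R controls and at most at 0.266 FPKM in the other controls. With LPS it measured 8.79, 8.16 and 7.74 FPKM in TLR4-WT, 3.35, 3.42 and 11.2 FPKM in TLR4-K730R and 2.14, 1.73 and 2.76 FPKM in TLR4-K810R. The Trim30b differences of 3.05 ± 0.29, 2.58 ± 0.29 and 1.67 ± 0.29 passed (adjusted p of 3.55e-07, 2.12e-06 and 0.000226), the last of them not on last-exon rows alone (1.67, adjusted p = 0.0243). With a pseudocount of 0.1 they were 5.42, 5.38 and 4.51, and on all rows with the Trim30b number 1.35, 1.18 and 0.91. The rows with that number include first exons at Trim12c (mean 5.316 FPKM) and Trim5 (mean 1.517 FPKM). The last 3 values therefore mix genes and are not those of Trim30b alone. Trim30b reached 1 FPKM in the 9 LPS libraries and in no control, and Trim30c in 1 control, so both entered the test through the groups in which they were high and their place among the members that rose is no evidence about the family. Reads of related genes that are alike in sequence can be split between copies by transcript estimation, so the levels of single Trim12 and Trim30 genes are uncertain. How alike these transcripts are was not measured.

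Trim12a, a mouse relative of the retroviral restriction factor TRIM5, measured 5.04, 5.36 and 4.29 FPKM in TLR4-WT controls and 17.5, 19.1 and 10.5 FPKM with LPS. Its rise was 1.46 ± 0.22 (TLR4-WT), 1.72 ± 0.22 (TLR4-K730R) and 1.25 ± 0.22 (TLR4-K810R) (adjusted p of 6.06e-05, 1.13e-05 and 0.00031), and the control and LPS libraries did not overlap in any genotype. Trim6, which makes unanchored ubiquitin chains in interferon signalling, stayed low. It measured 0.314 to 0.374 FPKM in TLR4-WT controls and 0.727 to 1.67 FPKM with LPS, a difference of 0.73 ± 0.26 that did not pass (adjusted p = 0.0288). It reached 1 FPKM in 4 LPS libraries and in no control, so it too entered the test through the LPS groups.

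Outside that cluster, Trim21, the cytosolic antibody receptor that ubiquitinates IRF proteins, also rose. It measured 4.58, 4.83 and 4.35 FPKM in TLR4-WT controls and 21.89, 24.02 and 17.96 FPKM with LPS. In TLR4-K730R it went from 3.90, 3.95 and 3.64 FPKM to 16.43, 15.97 and 23.43 FPKM, and in TLR4-K810R from 3.75, 3.89 and 3.35 FPKM to 13.04, 13.8 and 14.41 FPKM. The differences were 1.99 ± 0.14, 2.0 ± 0.14 and 1.66 ± 0.14 (adjusted p of 1.05e-08, 8.56e-09 and 9.24e-08), with no overlap. Trim56, a ligase linked to STING and RNA-virus restriction, rose by 1.31 ± 0.26 (TLR4-WT), 1.97 ± 0.26 (TLR4-K730R) and 1.35 ± 0.26 (TLR4-K810R) (adjusted p of 0.000587, 1.10e-05 and 0.000521). Its LPS values were spread, from 10.2 to 22.7 FPKM in TLR4-WT and from 13.9 to 28.0 FPKM in TLR4-K730R, against 3.24 to 5.66 FPKM over all controls.

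Trim14, a mitochondrial adaptor in the MAVS pathway, had the highest mean of the 28 members, at 30.6 FPKM over the 18 libraries. It measured 25.5, 27.0 and 26.8 FPKM in TLR4-WT controls and 44.4, 41.0 and 39.9 FPKM with LPS, a rise of 0.64 ± 0.10 (adjusted p = 0.00011). In TLR4-K730R it rose by 1.09 ± 0.10 (adjusted p = 3.76e-07) and in TLR4-K810R by 0.93 ± 0.10 (adjusted p = 2.81e-06), from controls of 17.2 to 21.8 FPKM and 17.0 to 20.2 FPKM. The rise was on 1 of its 2 first exons. The upstream first exon (chr4:46535880-46536141) averaged 23.8 FPKM in TLR4-WT controls and 39.3 FPKM with LPS, 14.86 and 40.44 FPKM in TLR4-K730R, and 15.01 and 33.07 FPKM in TLR4-K810R. The downstream first exon (chr4:46534488-46534604) averaged 2.51 and 2.23 FPKM, 4.33 and 1.87 FPKM, and 2.55 and 2.12 FPKM in the same groups.

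Trim26 and Trim13 passed or missed the threshold depending on genotype and setting. Trim26, a ligase known to act on nuclear IRF3, rose by 0.76 ± 0.22 in TLR4-K730R (adjusted p = 0.00942), while its differences of 0.72 ± 0.22 in TLR4-WT (adjusted p = 0.0128) and 0.33 ± 0.22 in TLR4-K810R (adjusted p = 0.238) did not pass. The Trim26 call in TLR4-K730R was lost when any of its 6 libraries except LPS replicate 1 was left out, with differences of 0.59 to 0.84, and also without a filter, on first-exon or last-exon rows alone, with library weights and in a fit of only these 2 groups. In TLR4-WT, in turn, Trim26 passed with median-of-ratios scaling (0.99), with library weights (0.81) and in a fit of only the 2 groups (0.72). Trim13, a membrane-bound ligase of the endoplasmic reticulum, rose by 0.70 ± 0.14 in both TLR4-K730R (adjusted p = 0.000545) and TLR4-K810R (adjusted p = 0.000642). In TLR4-WT its difference was 0.25 ± 0.14 (adjusted p = 0.139), with 4.63 to 5.18 FPKM in controls and 4.85 to 7.01 FPKM with LPS, and it passed there with median-of-ratios scaling (0.50, adjusted p = 0.00383). Its responses in the knock-ins were not shown to differ from that in TLR4-WT, at 0.44 ± 0.19 (adjusted p = 0.681) and 0.45 ± 0.19 (adjusted p = 0.327).

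**Figure D2:**
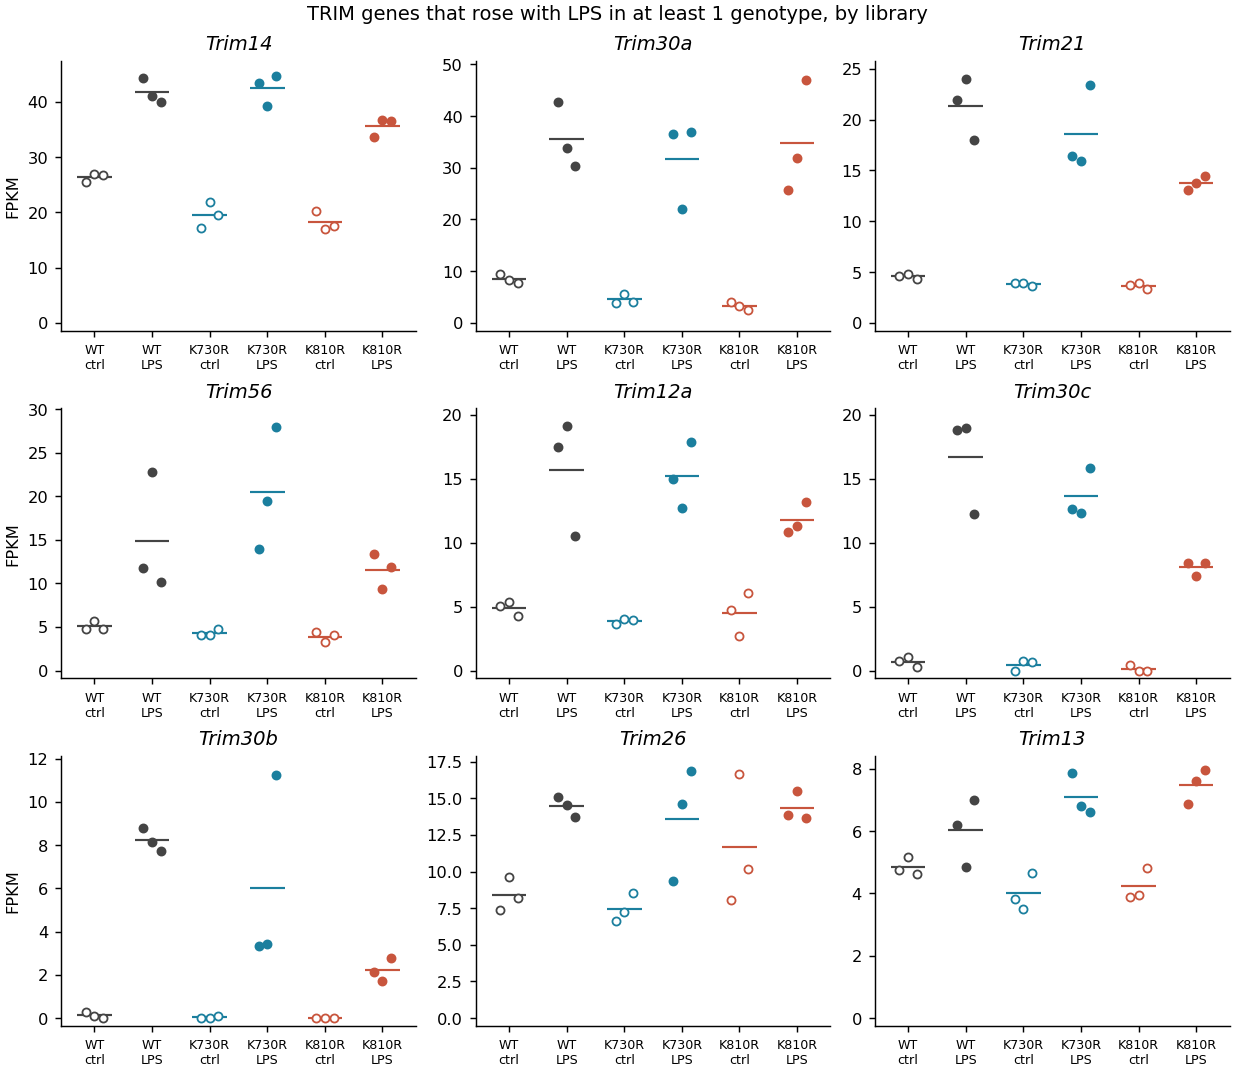
FPKM (y axis, linear) of the 9 TRIM genes that rose with LPS in at least 1 genotype, 1 panel per gene, with a point per library, 3 per group, open for control and filled for LPS, and a bar at the group mean. Trim30a controls lie between 2.49 and 9.40 FPKM and its LPS libraries between 22.0 and 47.0 FPKM, while Trim26 and Trim13 groups lie closer together.

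**Figure D3:**
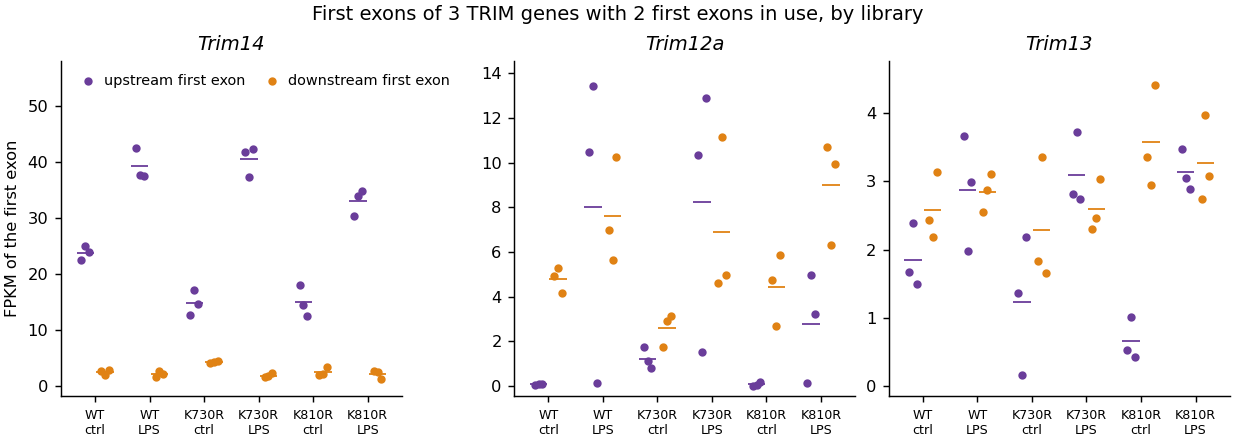
FPKM of the upstream (purple) and downstream (orange) first exon of Trim14, Trim12a and Trim13 in each library (points) with the group mean (bar). The upstream Trim14 exon averages 23.8 FPKM in TLR4-WT controls and 39.3 FPKM with LPS while the downstream one stays at 2.51 and 2.23 FPKM, and the split between the overlapping Trim12a exons varies between libraries of 1 group.

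At Trim12a the 2 first exons overlap, and with LPS the upstream one measured 10.5, 13.5 and 0.123 FPKM in TLR4-WT while the downstream one measured 6.98, 5.65 and 10.3 FPKM. The library lowest for one was highest for the other, so only their sum was compared. At Trim13 the upstream first exon averaged 1.85 and 2.88 FPKM in TLR4-WT control and LPS, 1.23 and 3.09 FPKM in TLR4-K730R, and 0.655 and 3.13 FPKM in TLR4-K810R. The downstream Trim13 exon averaged between 2.28 and 3.57 FPKM in every group.

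The members that fell with LPS came from several classes. Trim44, whose product protects proteins from degradation, and Trim32, a ligase with NHL repeats that acts on muscle proteins and STING, fell in all 3 genotypes. Trim44 measured 10.86, 11.97 and 9.465 FPKM in TLR4-WT controls and 5.79, 4.91 and 6.77 FPKM with LPS, a difference of -0.79 ± 0.14 (adjusted p = 0.000216). It was -0.92 ± 0.14 in TLR4-K730R (adjusted p = 5.00e-05) and -0.51 ± 0.14 in TLR4-K810R (adjusted p = 0.00759). Trim32 measured 4.69, 4.17 and 5.10 FPKM in TLR4-WT controls and 2.69, 2.09 and 2.71 FPKM with LPS, and its differences were -0.69 ± 0.13, -0.80 ± 0.13 and -0.49 ± 0.13 (adjusted p of 0.000393, 0.000101 and 0.00673). In TLR4-K810R the Trim44 call was lost without any 1 of the 6 libraries (-0.44 to -0.56), and the Trim32 call without control replicate 1 or 3 or LPS replicate 1 or 2 (-0.40 to -0.51).

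Trim29, known to act on NEMO and STING in airway macrophages, fell in TLR4-WT and TLR4-K730R. It measured 5.14, 3.37 and 5.31 FPKM in TLR4-WT controls and 1.77, 1.07 and 1.64 FPKM with LPS (-1.16 ± 0.18, adjusted p = 7.75e-05). In TLR4-K730R it measured 3.69, 3.70 and 4.93 FPKM in controls and 1.65, 1.48 and 1.61 FPKM with LPS (-0.98 ± 0.18, adjusted p = 0.000383). In TLR4-K810R its controls, at 1.84, 1.85 and 2.78 FPKM, overlapped its LPS libraries at 1.51, 2.26 and 2.02 FPKM (-0.10 ± 0.18, adjusted p = 0.682). The difference between the TLR4-K810R and TLR4-WT responses of Trim29 was 1.06 ± 0.26 and did not pass (adjusted p = 0.0874).

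Falls also passed in 1 or 2 genotypes for Trim8, Trim41, Trim65, Trim11 and Trim62. Trim8, a positive regulator of TNF and IL-1 signalling to NF-kB, fell by 0.41 on the log2 scale in TLR4-WT (SE 0.09, adjusted p = 0.00145) and by 0.35 in TLR4-K730R (SE 0.09, adjusted p = 0.00411). Trim41, a ligase reported to act on viral nucleoproteins, fell by 0.49 in TLR4-WT (SE 0.13, adjusted p = 0.00512) and by 0.53 in TLR4-K730R (SE 0.13, adjusted p = 0.00289). Trim65, a ligase of the RNA sensor MDA5, fell by 0.87 in both TLR4-WT (SE 0.20, adjusted p = 0.00237) and TLR4-K810R (SE 0.20, adjusted p = 0.00287). Trim11 fell by 0.61 (SE 0.16, adjusted p = 0.00436) and Trim62 by 0.64 (SE 0.16, adjusted p = 0.00305) in TLR4-K730R. Of the falls found by gene number, those of Trim29, Trim32 and Trim44 in TLR4-WT and TLR4-K730R passed under median-of-ratios scaling too, and none of those in TLR4-K810R did. A fit of only the 2 groups compared lost the calls of Trim8, Trim41, Trim65 and Trim32 in TLR4-WT, of Trim8, Trim41, Trim11 and Trim62 in TLR4-K730R and of Trim32 and Trim44 in TLR4-K810R. On last-exon rows alone Trim32 did not pass in any genotype, and on first-exon rows alone Trim62 did not pass. Single libraries also decided several calls: Trim41 in TLR4-WT was lost without any library except control replicate 2 (-0.45 to -0.52) and in TLR4-K730R without any except control replicate 3 or LPS replicate 2 (-0.44 to -0.50). Trim8 in TLR4-K730R was lost without any library except LPS replicate 3 (-0.32 to -0.36), Trim65 in TLR4-WT without control replicate 3 (-0.64) and in TLR4-K810R without control replicate 3 or LPS replicate 2 or 3 (-0.77 to -0.84). Trim11 was lost without TLR4-K730R control replicate 2 or 3 or LPS replicate 1 (-0.49 to -0.63), and Trim62 without control replicate 1 or 2 or LPS replicate 1 (-0.48 to -0.64).

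Several abundant members did not pass in any genotype. Trim35, a PRY-SPRY ligase linked to TRAF3 and IRF7, measured 25.9 to 33.5 FPKM over all 18 libraries, with LPS differences of -0.12 ± 0.08, -0.08 ± 0.08 and -0.07 ± 0.08. Trim28, the KAP1 corepressor that silences transposable elements, measured 28.1, 36.3 and 32.2 FPKM in TLR4-WT controls and 22.1, 18.1 and 29.5 FPKM with LPS (-0.47 ± 0.22, adjusted p = 0.0843). The related PHD-bromodomain genes Trim24 and Trim33 gave -0.53 ± 0.20 and -0.69 ± 0.33 in TLR4-WT and did not pass either (adjusted p of 0.0447 and 0.0999). Trim3, a brain-enriched NHL-repeat ligase, measured 7.03 to 16.6 FPKM and gave -0.51 ± 0.17 in TLR4-WT (adjusted p = 0.0224). Trim23, Trim27, Trim36, Trim37 and Trim39 did not pass in any LPS comparison with the settings given above. With library weights Trim3 and Trim36 passed as lower in TLR4-WT (limma adjusted p of 0.00895 and 0.00714) and Trim6 as higher (adjusted p = 0.00708). Leaving out 1 library also gave a call to Trim36 in TLR4-K810R and to Trim23 in TLR4-K730R. By class, 6, 7 and 6 of 15 tested PRY-SPRY genes rose in TLR4-WT, TLR4-K730R and TLR4-K810R, beside 10.4%, 9.32% and 9.08% of all genes, and 2, 3 and 1 fell, beside 23.9%, 26.5% and 19.7%. Without Trim30b, Trim30c and Trim6, which entered the test through the LPS groups, 4, 5 and 4 of 12 rose. None of the 3 PHD-bromodomain genes passed in any genotype, and of the 3 genes with no further domain Trim56 rose and Trim8 and Trim44 fell in TLR4-WT. Under other settings Trim24 did pass as lower in TLR4-K810R, on first-exon rows alone (limma adjusted p = 0.000268) and with 1 of the libraries left out.

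A list of 15 TRIM genes known to be induced by interferon in the mouse held 8 tested genes, of which 7 rose in TLR4-WT macrophages, 8 in those with TLR4-K730R and 7 in those with TLR4-K810R, and none fell, beside 10.4%, 9.32% and 9.08% of all genes that passed as higher. Without Trim30b and Trim30c, which entered the test through the LPS groups, 5, 6 and 5 of 6 rose, with median LPS differences of 1.38, 1.84 and 1.3. Among 23 tested interferon-stimulated genes outside the family, 20, 22 and 22 rose, and 19, 21 and 21 of 21 without Ifi44 and Isg15, which entered in the same way. Among 20 tested NF-kB target genes 19, 18 and 19 rose, and 17, 16 and 17 of 18 without Il6 and Ptgs2, likewise. These lists were written with earlier results of these data known, so the counts are not independent evidence.

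A further 7 members are expressed here but carry no gene number or the number of a neighbour in the deposited tables. They were found by giving a row to the gene whose annotated start or end lay within 100 bases on the same strand, a choice made after the data had been seen. On that reading 35 members were tested, of which 17 passed with LPS in TLR4-WT beside 33.9% of 10036 genes, 20 in TLR4-K730R beside 35.6%, and 15 in TLR4-K810R beside 28.2%. Trim25, the ligase that activates the RNA sensor RIG-I, was the most abundant TRIM gene by this reading, and its rows (first exon chr11:88999376-89000082) had no gene number. It measured 38.3, 37.8 and 37.7 FPKM in TLR4-WT controls and 88.4, 93.5 and 71.1 FPKM with LPS. In TLR4-K730R it went from 28.8, 28.7 and 28.6 FPKM to 90.3, 71.03 and 97.19 FPKM, and in TLR4-K810R from 26.98, 26.02 and 25.98 FPKM to 63.6, 72.1 and 68.1 FPKM. The rises were 1.12 ± 0.12, 1.54 ± 0.12 and 1.33 ± 0.12 (adjusted p of 1.35e-06, 3.58e-08 and 2.28e-07), with no overlap between control and LPS.

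Trim30d, whose rows carry the number of the overlapping gene Gm16464, measured 7.09, 10.1 and 4.63 FPKM in TLR4-WT controls and 39.9, 42.2 and 27.1 FPKM with LPS (2.20 ± 0.21, adjusted p = 3.82e-07). It rose by 2.35 ± 0.21 in TLR4-K730R (adjusted p = 1.73e-07) and by 2.61 ± 0.21 in TLR4-K810R (adjusted p = 6.00e-08). Trim34a, on rows numbered Trim34b, rose by 1.24 ± 0.18, 1.57 ± 0.18 and 1.5 ± 0.18 (adjusted p of 4.34e-05, 3.57e-06 and 6.98e-06). Trim12c and Trim5, both on rows numbered Trim30b, did not pass in any genotype, with 0.24 ± 0.32 and 0.68 ± 0.20 in TLR4-WT (adjusted p of 0.557 and 0.0104), though Trim5 passed there with median-of-ratios scaling (0.87, adjusted p = 0.0021). Trim47, on rows numbered Trim65, was the one abundant gene of these that fell. It measured 12.3, 11.2 and 14.4 FPKM in TLR4-WT controls and 3.93, 4.73 and 6.92 FPKM with LPS (-1.16 ± 0.19, adjusted p = 0.000137), with -1.28 ± 0.19 in TLR4-K730R (adjusted p = 5.40e-05) and -0.87 ± 0.19 in TLR4-K810R (adjusted p = 0.00205). The falls of Trim47 passed under median-of-ratios scaling in every genotype (-0.66, adjusted p = 0.00924, in TLR4-K810R), and its TLR4-K810R call was lost without control replicate 3 (-0.73) or LPS replicate 1 (-0.79). Trim16, on rows numbered Fbxw10, did not pass in any genotype.

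**Figure D4:**
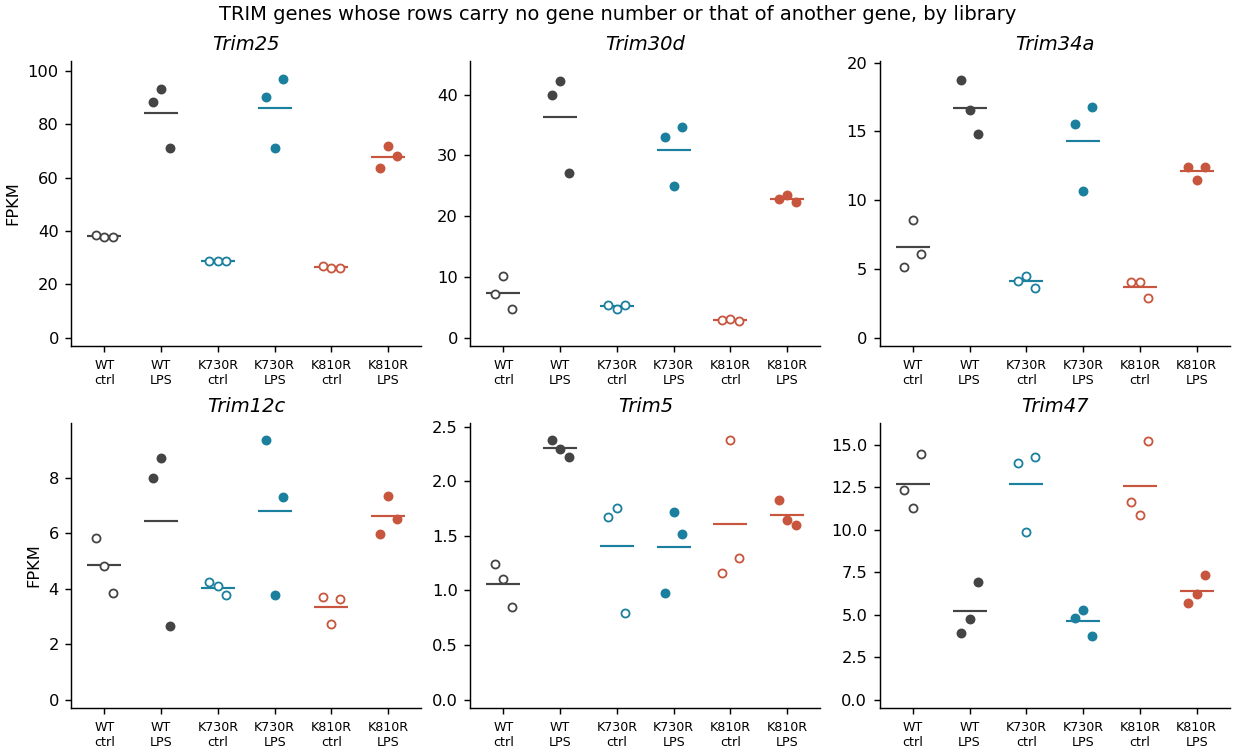
FPKM (y axis, linear) of 6 TRIM genes whose rows carry no gene number or that of another gene, with a point per library, open for control and filled for LPS, and a bar at the mean of each group of 3. Trim25 control libraries lie between 25.98 and 38.32 FPKM and LPS libraries between 63.6 and 97.2 FPKM, and Trim47 is lower with LPS in every genotype.

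Set beside the sequences shown above, the 8 members with an ISRE match had LPS differences of 0.24 to 2.20 in TLR4-WT with a median of 1.35, and 5 of them rose and none fell, beside 10.3% of all 10036 genes that rose and 23.6% that fell. The 10 members without a match had differences of -1.16 to 3.38 with a median of -0.36, and 2 rose and 3 fell. The highest of these is Trim30c, which entered the test through the LPS groups. Other members had no window at a start in use and are in neither group. Among them Trim14, Trim30b and Trim56 rose in TLR4-WT, and Trim8, Trim29, Trim41 and Trim65 fell. Over all tested genes with a window at a start in use, 29.9% rose and 20.4% fell of the 201 with the letters, with a median of 0.01, and 10.1% rose and 25.5% fell of the 5706 without, with a median of -0.29. Trim5 and Trim12a have the same 30 bases around the match, yet in TLR4-WT their differences were 0.68 and 1.46 and in TLR4-K810R 0.07 and 1.25. Trim30a and Trim30d share theirs and gave 1.94 and 2.20 in TLR4-WT and 3.03 and 2.61 in TLR4-K810R. Trim25 and Trim30c, without a match in the window, rose in every genotype, though the rise of Trim30c is no evidence here for the reason just given. These counts describe letters in 1 window per start and are neither sites nor causes.

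No member passed in any comparison of a knock-in with TLR4-WT at the same treatment, by gene number. In controls, 0 of 28 members passed for TLR4-K730R beside 0.268% of all genes, and 0 of 28 for TLR4-K810R beside 1.58%. With LPS, 0 of 28 passed for TLR4-K730R beside 0.0% of all genes, and 0 of 28 for TLR4-K810R beside 0.134%. No difference in LPS response passed either, beside 0.0412% (TLR4-K730R) and 0.124% (TLR4-K810R) of all genes. In simulated data the same fit recovered 24% (TLR4-K730R) and 30% (TLR4-K810R) of 2-fold differences in response, so differences of that size could be missed. At an unadjusted p under 0.05 in limma, 2 members (7.14%) stood beside 7.70% of all genes in TLR4-K730R controls, and 4 (14.3%) beside 14.1% in TLR4-K810R controls. With LPS these counts were 0 beside 7.69% in TLR4-K730R and 10 (35.7%) beside 21.8% in TLR4-K810R. For the difference in LPS response they were 2 (7.14%) beside 7.02% and 5 (17.9%) beside 13.2%.

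The members nearest to passing were lower in TLR4-K810R controls. Trim14 measured 20.2, 17.0 and 17.6 FPKM there against 25.5, 27.0 and 26.8 FPKM in TLR4-WT controls (-0.51 ± 0.10, adjusted p = 0.0102), and Trim30a measured 4.14, 3.30 and 2.49 FPKM against 9.40, 8.26 and 7.79 FPKM (-1.15 ± 0.23, adjusted p = 0.0103). Neither pair of groups overlapped. Both passed with a pseudocount of 0.1 and with library weights, Trim14 also without a filter and with a filter at 5 FPKM, and the differences without control replicate 3, the TLR4-K810R library highest for the mesothelial list, were -0.49 and -1.01. Trim29 was at -0.82 ± 0.18 (adjusted p = 0.0181). With rows given by place, Trim30d passed in this comparison, at 2.82, 3.12 and 2.76 FPKM against 7.09, 10.1 and 4.63 FPKM (-1.03 ± 0.21, adjusted p = 0.00994), the single member of 35 to pass beside 1.65% of all genes. That call was lost with median-of-ratios scaling and without TLR4-WT control replicate 1 or 2 or any TLR4-K810R control (-0.79 to -1.07). Trim25 gave -0.51 ± 0.12 (adjusted p = 0.0242) and Trim34a -0.70 ± 0.18 (adjusted p = 0.0468).

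Interferon-stimulated genes outside the family were lower in the same controls. Of 23 tested, 16 were lower and none higher in TLR4-K810R controls, with a median difference of -1.91, beside 1.58% of all genes that passed in either direction. In TLR4-K730R controls 9 were lower and none higher, with a median of -1.50, beside 0.268% of all genes. The same list had been seen in these libraries before, so its direction is not independent evidence. Ifit3, an interferon-induced antiviral protein, measured 29.96, 34.61 and 34.09 FPKM in TLR4-WT controls, 7.22, 6.00 and 6.01 FPKM in TLR4-K730R controls and 4.17, 3.91 and 3.60 FPKM in TLR4-K810R controls. The 8 interferon-induced TRIM genes had median differences of -0.29 (TLR4-K810R) and -0.22 (TLR4-K730R), beside 0.07 and 0.03 over all genes, and 1 and 0 of them were above 0. NF-kB target genes gave medians of -0.09 and 0.16 in the same comparisons.

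With LPS, members stood apart from TLR4-WT without overlap in both directions in TLR4-K810R, 5 higher and 4 lower of 28, and none passed. Over all genes tested the groups did not overlap for 17.4% as higher and 7.89% as lower, and the median difference was 0.11. The lower ones were Trim30b, Trim30c, Trim21 and Trim14, with differences of -1.53 ± 0.29 (adjusted p = 0.0179), -0.94 ± 0.24 (adjusted p = 0.0524), -0.59 ± 0.14 (adjusted p = 0.0415) and -0.23 ± 0.10 (adjusted p = 0.223). The higher ones were Trim27, Trim3, Trim44, Trim8 and Trim35, with differences of 0.55, 0.44, 0.34, 0.20 and 0.18 (adjusted p of 0.211, 0.152, 0.172, 0.205 and 0.225). The Trim30b difference was -1.87 with a pseudocount of 0.1, -0.68 on last-exon rows alone (adjusted p = 0.516) and -0.62 on all rows with its number (adjusted p = 0.106). Those rows include first exons at Trim12c and Trim5, so the last value mixes genes. Trim30b, Trim21 and Trim30c passed with library weights, and Trim21 passed without TLR4-WT LPS replicate 3 (-0.70). Trim30a, by contrast, was at -0.06 ± 0.23 in that comparison. The LPS response in TLR4-K810R differed from that in TLR4-WT by 1.09 ± 0.33 for Trim30a (adjusted p = 0.168) and -1.38 ± 0.41 for Trim30b (adjusted p = 0.157), neither of which passed. The Trim30b value rests on controls at or near 0 and was -0.92 with a pseudocount of 0.1. It was -0.44 on all rows with its number, those at Trim12c and Trim5 included. That of Trim30c turned from -0.37 to 1.05 with a pseudocount of 0.1.

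**Figure D5:**
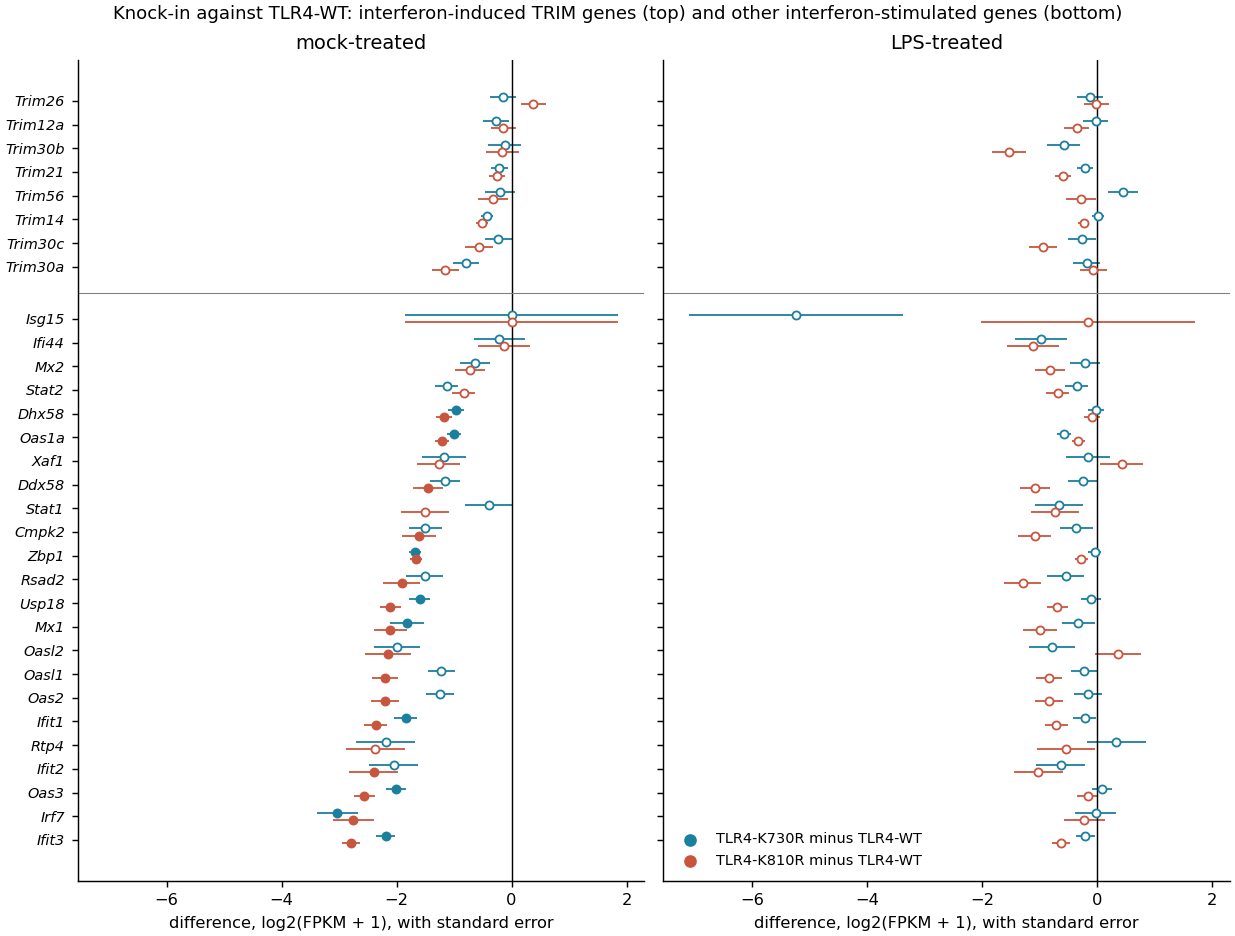
Differences of TLR4-K730R (blue) and TLR4-K810R (red) from TLR4-WT on the log2(FPKM + 1) scale with standard errors, in controls (left, mock-treated) and with LPS (right), for 8 interferon-induced TRIM genes (top) and 23 other interferon-stimulated genes (bottom). Filled points passed an adjusted p of 0.01: 16 of the lower genes for TLR4-K810R and 9 for TLR4-K730R in controls, none of the TRIM genes; Isg15 is listed at 0 in 14 libraries, which gives its wide errors.

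Partners of the family are read beside the 34.3%, 35.8% and 28.8% of all genes that passed with LPS in the 3 genotypes. Of 12 tested E1 and E2 enzymes that hand ubiquitin to RING ligases, 1 passed with LPS in each genotype: Ube2l6, the interferon-induced E2 for ISG15, which measured 31.4, 28.5 and 30.5 FPKM in TLR4-WT controls and 200.8, 202.6 and 197.2 FPKM with LPS (2.69 ± 0.14, adjusted p = 3.52e-10). It was lower in TLR4-K730R controls (-0.81 ± 0.14, adjusted p = 0.00971) and in TLR4-K810R controls (-0.71 ± 0.14, adjusted p = 0.00742). The rest, among them Ube2n and Ube2d3, did not pass. Of 13 tested sensing proteins on which TRIM ligases act, 4, 3 and 4 rose and 1, 2 and 2 fell in TLR4-WT, TLR4-K730R and TLR4-K810R. Ddx58, which encodes RIG-I, the target of Trim25, rose by 2.56 ± 0.26, 3.49 ± 0.26 and 2.93 ± 0.26, and Ifih1, which encodes MDA5, the target of Trim65, rose by 2.42 ± 0.26, 2.46 ± 0.26 and 2.74 ± 0.26. Map3k7, which encodes the TAK1 kinase, fell by 0.49, 0.77 and 0.51 on the log2 scale (SE 0.09 each). Of 8 corepressor partners of Trim28, 1, 4 and 2 passed in the 3 genotypes in that order. Chd3 fell in every genotype (-1.33 ± 0.35 in TLR4-WT, adjusted p = 0.00497), and Hdac1 rose in the 2 knock-ins (0.83 ± 0.20 and 0.79 ± 0.20, adjusted p of 0.00281 and 0.00475), beside 0.69 ± 0.20 in TLR4-WT (adjusted p = 0.0106). Cbx3 and Cbx5, which encode HP1 proteins, fell in TLR4-K730R (-1.42 ± 0.32 and -1.15 ± 0.33, adjusted p of 0.00177 and 0.00938) and did not pass in TLR4-WT (-0.50 and -0.43) or TLR4-K810R (-0.89 and -0.52). Of 3 tested TRIM proteins named otherwise, Mefv, which encodes pyrin, rose in every genotype (2.87 ± 0.20 in TLR4-WT, adjusted p = 1.19e-08), Pml rose in TLR4-K730R (1.80 ± 0.46, adjusted p = 0.00409) beside 1.32 ± 0.46 in TLR4-WT (adjusted p = 0.0271) and 0.60 ± 0.46 in TLR4-K810R (adjusted p = 0.32), and Mid1 did not pass.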

How the data were processed

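Processed tables of 18 RNA-seq libraries of peritoneal macrophages were used, 3 per group, grouped by their labels. The values the authors deposited are FPKM per exon event (first exons, last exons and splicing events, 20 kinds) with an Ensembl number. Aligner, assembler and annotation are not given in the sources used here. The submitters' processing notes name hg18, a human build, while the numbers and positions match mouse GRCm38: 14126 of 14138 Ensembl numbers were in GENCODE M21 (GRCm38). Events without expression have no row, and no counts were given, so depth and its precision are unknown.

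First-exon and last-exon rows that overlapped the numbered gene on its strand (92.0% of rows) were summed, and the larger sum was the value of a gene; 6.24% of the FPKM of such rows was dropped. Genes that reached 1 FPKM in 3 or more libraries were tested on log2(FPKM + 1), all 6 groups in 1 limma fit with an intensity trend (limma 3.58.1, R 4.3.3), Benjamini-Hochberg adjustment over all genes and a threshold of 0.01, the one in the RNA-seq paragraph of the study's methods, which names no test there. The fit was tested on simulated data. Named genes were those that passed, the 8 most abundant, the Trim5/6/12/30/34 group those with a row but not tested, and partner lists. The rule for members uses names alone, but the family and the lists were chosen with earlier results of these data known. Alternatives were another pseudocount, no filter or a filter at 5 FPKM, median-of-ratios scaling, first-exon or last-exon rows alone, all rows with the gene number, a replicate block, library weights, fits on only the groups compared and leaving out each library. Rows given by place were added after seeing the data. Promoters were searched with Python 3.11.15. Same-numbered libraries did not deviate together (0 of 45 pairs with a correlation over 0.1), so replicate numbers were not treated as pairs.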

Additional observations from a re-analysis of the deposited data

How the results depend on the processing

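Of 619 recalculated values of comparisons in which a member passed under at least 1 setting, under the alternatives that keep all libraries, 563 kept their direction and their side of the threshold, 33 lost a call, 23 gained one and none changed sign. On last-exon rows alone the number of members that passed with LPS was 8 (TLR4-WT), 9 (TLR4-K730R) and 6 (TLR4-K810R), and members without a last-exon row, Trim30a and Trim12a among them, could not be tested there. For TLR4-K810R against TLR4-WT in controls, 2 members passed with a pseudocount of 0.1, 1 without a filter, 1 with a filter at 5 FPKM, 3 with library weights and 1 with rows given by place; with library weights and rows given by place together 5 passed. For the same genotypes with LPS, 3 passed with library weights and 0 to 1 when 1 library was left out. With rows given by place, leaving out 1 library gave 0 to 1 in the control comparison. The cause of these differences was not tested. With the replicate block 14, 16 and 10 members passed with LPS in the 3 genotypes in that order and 0 in each comparison of genotypes. By gene number the block lost the call of Trim44 in TLR4-K810R (adjusted p = 0.0128), gained that of Trim26 in TLR4-WT (adjusted p = 0.00682) and changed no other call of a member. By place it changed these 2 in the same way, gained Trim5 in TLR4-WT (adjusted p = 0.00971) and, in TLR4-K810R controls, lost Trim30d (adjusted p = 0.0145) and gained Trim29 (adjusted p = 0.00934); 0 of 18 libraries correlated best with a library of their own number. Leaving out 1 library at a time gave 11 to 13, 12 to 14 and 8 to 11 members with LPS. Without counts, how far depth limits the low members (Trim30b, Trim6, Trim30c in controls) is unknown.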

Other observations

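A total of 8 members had a row but did not reach the level for testing: Trim2, Trim7, Trim15, Trim17, Trim34b, Trim45, Trim59 and Trim68. Of these 8, 5 had their highest value in the same library, TLR4-K810R control replicate 3, with 1.35 FPKM for Trim2, 0.710 FPKM for Trim7, 0.212 FPKM for Trim15, 1.295 FPKM for Trim59 and 1.40 FPKM for Trim68. That library was also the highest of the 18 for the mesothelial and fibroblast list (138 FPKM) and for the intestinal epithelium list (48.7 FPKM). Trim15 had a row in that library alone. Whether cells of those kinds account for these values was not tested.

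Trim17 was listed at 21.04 FPKM in TLR4-K730R LPS replicate 2, at 1.2 FPKM in TLR4-WT LPS replicate 3 and at 0 in the other 16 libraries. The same value stood on a first-exon row (chr11:58954685-58955392) and on a last-exon row in each of these libraries.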
